A study of Mus musculus with 4 samples.

Results

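The comparison described here is the difference between the responses of M1 and M2 macrophages to interleukin-1α (IL-1α), set against the level at which each gene started. For every gene, the response in each phenotype is the log2 signal with IL-1α minus the log2 signal with vehicle. The response difference is the M2 response minus the M1 response, so a positive value means a larger increase, or a smaller decrease, in M2. All 4 arrays of the series enter it, and 10625 of the 19938 genes measured by a probe set with 1 gene were examined because they reached a floor on at least 1 array. The floor is a log2 signal of 7.62, which is the median level of the measured genes on these arrays.

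The cells were C57BL/6N bone marrow-derived macrophages grown in 10 ng/mL M-CSF, with fresh medium on days 3 and 6 and harvest on day 9. M1 cells were activated for 48 h with 10 ng/mL interferon-γ and M2 cells for 48 h with 20 ng/mL interleukin-4. Each kind then received vehicle or 10 ng/mL IL-1α for 24 h. The 4 groups hold 1 array each, and whether they derive from separate cultures or mice is not in the labels. The contrast has 0 residual degrees of freedom, so no p-value or standard deviation belongs to any value below, and array and treatment cannot be told apart. The only yardstick given is the spread over genes.

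IL-1α binds the IL-1 receptor, which recruits the co-receptor Il1rap and the adaptor Myd88, the IRAK kinases and Traf6. These activate the kinase TAK1 and the IKK complex, which releases NF-κB from its IκB inhibitors, and the MAP kinases. NF-κB then drives genes of chemokines, cytokines, adhesion molecules and its own inhibitors. Interferon-γ prepares macrophages for killing microbes, whereas interleukin-4 acts through STAT6 and gives a tissue-remodelling state.

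The arrays carried the markers of their labels. The macrophage genes Adgre1, Csf1r and Cd68 read between 12.56 and 13.82 on all 4 arrays. Nos2, the inducible nitric oxide synthase, read 12.999 and 13.022 in M1 and 6.79 and 7.13 in M2 (vehicle, then IL-1α). Cxcl9, an interferon-γ-induced chemokine, read 13.84 and 13.84 in M1 and 6.398 and 7.003 in M2. Arg1, the arginase of M2 macrophages, read 6.75 and 6.55 in M1 and 12.48 and 12.41 in M2, Retnla 4.914 and 4.998 against 12.66 and 12.63, and Mrc1, the mannose receptor, 7.997 and 7.906 against 13.30 and 13.27. IL-1α left each of these markers on the side of its phenotype. Among the lists of other cell types, 5 of 11 neutrophil markers measured, 7 of 11 dendritic cell markers, 2 of 13 T, B and NK cell markers, 2 of 7 mast and erythroid markers, 7 of 12 stromal and endothelial markers and 8 of 9 osteoclast markers reached the floor, and 0 members of these lists had a response difference of 2-fold. Their median response differences were -0.11, 0.17, 0.20, -0.03, -0.10 and 0.12 in that order.

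The response to IL-1α was larger in M2 for a small set of inflammatory genes, and no named gene was displaced as far the other way. A response difference of at least 1 (2-fold) was reached by 34 of 10625 genes (0.32%), and a difference of -1 or less by 0 genes (0%). At 1.5-fold, 108 genes were higher in M2 (1.02%) and 15 were lower (0.141%). The median over all genes was 0.06, with an SD over genes of 0.20, and the central 95% of genes lay between -0.31 and 0.45. The asymmetry holds only for probe sets with 1 gene. Among 5705 probe sets at the floor that carried several genes or no gene, 13 reached 1 and 35 reached -1, with a range of -1.88 to 1.67.

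Nearly all of the difference came from the M2 arrays. In the 34 genes, the M2 response had a median of 1.65 and ran from 0.67 to 3.90, and 32 of them rose by at least 2-fold in M2. The M1 response of the same genes had a median of 0.05 and ran from -0.43 to 0.33. Prrg4, a vitamin K-dependent membrane protein, and Aldh1a2, an enzyme that makes retinoic acid, passed 2-fold only because a smaller M2 increase (0.67 and 0.79) met a decrease in M1 (-0.43 and -0.25). In 17 of the 34 genes the M2 vehicle level was under the floor, where signal may not be separable from background. The size and order of those differences are uncertain. The floor is a median level and not a measure of background. In 12 genes the M1 vehicle level was within 2 log2 units of the highest signal on that array (14.40). A set of 13 genes was free of both limits: H2-M2, Ccl17, Ccl22, Nfkbie, Edn1, Olr1, Tagap, Nfkbia, Cxcl16, Cdc42ep2, Gpr132, Zc3h12c and Aldh1a2. Of these, Ccl17, Edn1, Olr1 and Aldh1a2 read under the floor on both M1 arrays, so their M1 responses are uncertain. This includes the M1 decrease of -0.25 through which Aldh1a2 passed 2-fold.

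**Figure D1:**
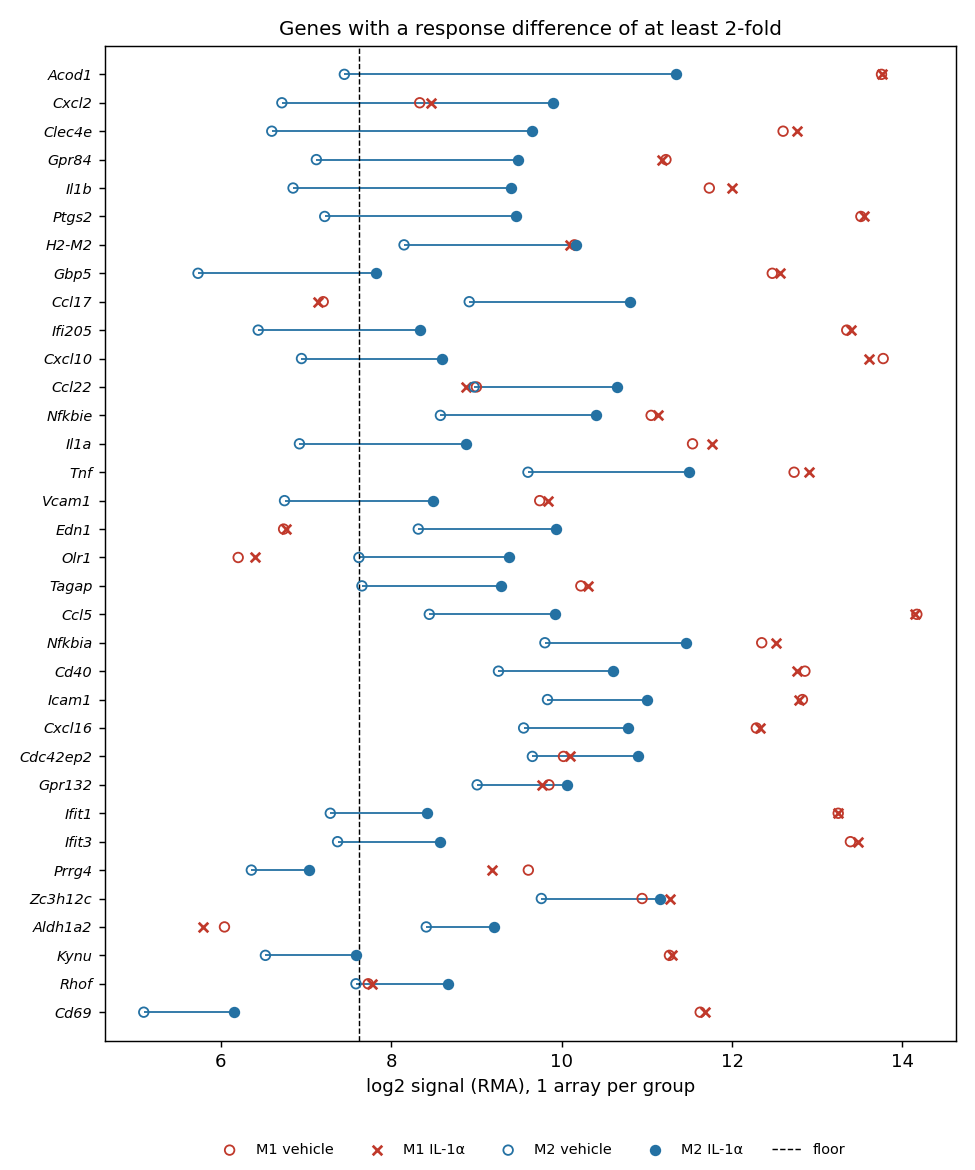
Log2 signal (horizontal axis) of the 34 genes with a response difference of at least 2-fold, ordered from the largest difference at the top; each point is 1 array, red for M1 and blue for M2, and the dashed line is the floor of 7.62. The M1 vehicle and IL-1α points nearly coincide for most genes, while the line joining the M2 points spans 0.67 to 3.90 log2 units.

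Among enzymes of immunometabolism and prostaglandin synthesis, Acod1 and Ptgs2 were past 2-fold. Acod1, which makes the antimicrobial metabolite itaconate, read 13.75 in M1 with vehicle, 13.76 in M1 with IL-1α, 7.45 in M2 with vehicle and 11.35 in M2 with IL-1α. Its response difference of 3.89 (14.8-fold) was the largest of the named genes, and its M2 level with IL-1α still lay 2.42 under M1. Ptgs2, the inducible cyclooxygenase, read 13.51, 13.55, 7.22 and 9.46 in the same order, a difference of 2.21. Acod1 and Ptgs2 sat near the top of the M1 arrays, and their M2 vehicle signals lay below the floor, so the size of the difference is not firm. Kynu, the kynureninase of tryptophan breakdown, had a difference of 1.04 but read under the floor on both M2 arrays. Of the 15 prostaglandin and itaconate enzymes examined, these 2 passed (13.3%, against 0.32% of all genes), the list median was 0.17, and the prostaglandin E receptor Ptger4 (0.89), the leukotriene synthase Ltc4s (0.48) and the phospholipase Pla2g4a (0.47) came next.

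The cytokines of the NF-κB programme followed. Il1b read 11.73 with vehicle and 11.99 with IL-1α in M1, and 6.85 and 9.41 in M2, a response difference of 2.30. Il1a, the gene of the added cytokine itself, read 11.54 and 11.77 in M1 and 6.92 and 8.88 in M2, a difference of 1.73. Tnf read 12.73 and 12.90 in M1 and 9.60 and 11.50 in M2, a difference of 1.72. Tnf was thus above the floor on every array, whereas Il1b and Il1a crossed it with IL-1α. Of 15 cytokines examined these 3 passed 2-fold (20.0%, against 0.32% of all genes), and the median of the list was 0.23, against 0.06. Csf1, the macrophage growth factor, was at 0.88 and Tnfsf9 at 0.51. Il12b, the interferon-γ-associated interleukin-12 subunit, read 11.78 on both M1 arrays and 6.17 and 6.15 in M2. Its measured gap did not narrow, but both M2 signals lay under the floor and are uncertain.

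Of 20 chemokines examined, 6 passed 2-fold, against 0.32% of all genes. Cxcl2, which attracts neutrophils, read 8.33 with vehicle and 8.46 with IL-1α in M1, and 6.72 and 9.90 in M2. Its response difference of 3.05 carried it past M1, from 1.62 lower in M2 to 1.43 higher. Cxcl10, a ligand of Cxcr3, read 13.77 and 13.61 in M1 and 6.95 and 8.59 in M2, a difference of 1.81. The Ccr4 ligands Ccl17 and Ccl22, which interleukin-4 is known to raise, started above M1 and level with it (gap -0.03). Ccl17 read 7.20 and 7.14 in M1 and 8.91 and 10.80 in M2 (difference 1.95), and Ccl22 read 9.00 and 8.88 in M1 and 8.97 and 10.65 in M2 (1.80). Ccl5 (1.49) and Cxcl16 (1.18) completed the group. The neutrophil chemokine Cxcl1 was at 0.02, the monocyte chemokine Ccl2 at 0.10 and Cxcl11 at -0.17, and the list median was 0.25.

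Among the genes past 2-fold, the NF-κB inhibitors Nfkbie and Nfkbia, which NF-κB itself induces, read above the floor on all 4 arrays. Nfkbie, which encodes IκBε, read 11.05 with vehicle and 11.13 with IL-1α in M1, and 8.58 and 10.40 in M2, a response difference of 1.74. Nfkbia, which encodes IκBα, read 12.35 and 12.51 in M1 and 9.80 and 11.45 in M2, a difference of 1.49. Both were 2-fold or more lower in M2 with vehicle and ended 0.73 and 1.06 under M1 with IL-1α. Of 16 feedback regulators these 2 passed 2-fold (12.5%, against 0.32% of all genes). Nfkbiz (0.92), Bcl3 (0.76), Zc3h12a (0.76) and Tnfaip3 (0.73) did not, and the median was 0.43. Nfkbiz read 7.45 in M2 with vehicle, under the floor. Zc3h12c, a relative of the RNA-degrading Zc3h12a, was the only gene of the 34 with more than 1 probe set, and its probe sets gave 1.00 and 1.13.

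Receptors and surface proteins formed a further group. Clec4e, the glycolipid receptor Mincle, read 12.60 and 12.76 in M1 and 6.60 and 9.66 in M2, a response difference of 2.90. Gpr84, a receptor of medium-chain fatty acids, read 11.22 and 11.17 in M1 and 7.12 and 9.48 in M2, a difference of 2.42. H2-M2, a non-classical MHC class I gene, read 10.15 and 10.09 in M1 and 8.15 and 10.17 in M2, a difference of 2.08 that brought the phenotypes to the same level within 0.08. The adhesion molecules Vcam1 (1.64) and Icam1 (1.21), the costimulatory receptor Cd40 (1.44), the oxidised lipoprotein receptor Olr1 (1.57), the lipid-sensing receptor Gpr132 (1.14) and the activation antigen Cd69 (1.01, under the floor on both M2 arrays) also passed. The remaining genes past 2-fold outside the interferon group were the vasoconstrictor peptide Edn1 (1.60), Tagap (1.55), the Cdc42 effector Cdc42ep2 (1.17), Prrg4 (1.10), Aldh1a2 (1.04) and the GTPase Rhof (1.03).

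A few interferon-induced genes were included. Gbp5, an interferon-induced GTPase, read 12.47 with vehicle and 12.56 with IL-1α in M1, and 5.73 and 7.82 in M2, a response difference of 1.999. Ifi205, of the Ifi200 family of DNA sensors, read 13.35 and 13.39 in M1 and 6.44 and 8.34 in M2, a difference of 1.85. Ifit1 (1.14) and Ifit3 (1.12), which restrict viral RNA, were the last of them. All 4 started under the floor in M2, and probe sets of the Gbp, Ifi200 and Ifit families can pick up their relatives, so the member is uncertain.

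The 250 bases before the RefSeq start site (GRCm38.p6) are printed for 4 of the 34 genes. Cxcl2 overtook M1, Nfkbia stayed below M1 with every array above the floor, Gpr132 started within 2-fold in both phenotypes and Gbp5 is interferon-induced. All 4 hold a match to the κB consensus, whereas 8 of the 28 genes searched had one. Ccl17, Edn1, Olr1 and Aldh1a2, which started at least 2-fold higher in M2, had no κB match and are not printed. Capitals mark matches to the κB consensus or, in the first capital run of Gbp5, to GAAANNGAAA, the core of the interferon-stimulated response element (ISRE). All are written 5′ to 3′ on the gene's own strand. They lie at chr5:90903649-90903898 (Cxcl2, plus strand), chr12:55492648-55492897 (Nfkbia, minus strand), chr12:112860917-112861166 (Gpr132, minus strand) and chr3:142496684-142496933 (Gbp5, plus strand).
Cxcl2: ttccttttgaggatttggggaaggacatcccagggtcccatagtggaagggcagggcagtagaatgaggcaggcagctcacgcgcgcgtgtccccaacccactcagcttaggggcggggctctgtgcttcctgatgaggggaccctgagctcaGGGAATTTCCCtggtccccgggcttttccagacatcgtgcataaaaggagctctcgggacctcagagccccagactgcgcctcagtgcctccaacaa
Nfkbia: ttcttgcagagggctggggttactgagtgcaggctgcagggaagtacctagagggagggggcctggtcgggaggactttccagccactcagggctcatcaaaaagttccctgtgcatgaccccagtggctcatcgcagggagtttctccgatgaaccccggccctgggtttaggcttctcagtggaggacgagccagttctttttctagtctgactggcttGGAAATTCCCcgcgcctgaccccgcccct
Gpr132: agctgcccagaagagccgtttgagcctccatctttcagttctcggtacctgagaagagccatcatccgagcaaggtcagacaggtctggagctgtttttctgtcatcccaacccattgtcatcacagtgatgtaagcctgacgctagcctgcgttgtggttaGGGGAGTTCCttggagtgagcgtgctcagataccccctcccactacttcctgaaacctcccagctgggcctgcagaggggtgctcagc
Gbp5: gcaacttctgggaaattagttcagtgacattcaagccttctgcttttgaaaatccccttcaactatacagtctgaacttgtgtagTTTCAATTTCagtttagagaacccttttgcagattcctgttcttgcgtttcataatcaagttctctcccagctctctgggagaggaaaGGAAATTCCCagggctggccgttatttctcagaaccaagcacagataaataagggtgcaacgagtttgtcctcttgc

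The κB matches began 97 and 96 bases before the start in Cxcl2 (overlapping matches, read from either strand), 29 in Nfkbia, 88 in Gpr132 and 77 in Gbp5, and the ISRE match of Gbp5 began 165 bases before the start. A RefSeq window of 300 bases (250 before to 50 after the start) was found for 28 of the 34 genes, by symbol, with the first listed window used where a gene has several. A κB match on either strand was in 8 of 28 (28.6%), against 854 of 8601 genes examined (9.93%), 2211 of 27025 genes with a window (8.18%), and 67 of 552 genes (12.1%) that were at least 2-fold higher in M1 with vehicle without a 2-fold response difference. The ISRE core was in 6 of 28 (21.4%), against 3.24% of genes examined and 12.9% of those 552. The palindromes TTCNNNNGAA, known for STAT6, and TGANTCA, known for AP-1, were in 3 and 5 of the 28 (10.7% and 17.9%), against 5.44% and 4.98% of genes examined and 6.70% and 8.70% of those 552. Matches of different motifs may overlap. The motifs and the 4 promoters were chosen with the values known, so these shares are descriptions of letters and not of binding.

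The response difference was next set against the starting level. Genes were placed by the vehicle arrays into those at least 2-fold higher in M1 (716 genes, called M1-high here), those at least 2-fold higher in M2 (737, M2-high), those within 2-fold (9036, matched) and those under the floor on both vehicle arrays (136). Of the 34 genes, 26 were M1-high, 3.63% of that class, whereas 4 were M2-high (0.543%) and 4 were matched (0.0443%). Of the genes under the floor on both vehicle arrays, 0 passed. The medians were 0.16 in M1-high, 0.08 in M2-high, 0.05 in matched genes and 0.03 in the rest. The spread was wider than the shift: the SD was 0.41 in M1-high genes, 0.24 in M2-high genes and 0.16 in matched genes. In M1-high genes the wider spread came from the M2 response, whose SD was 0.41 against 0.14 for the M1 response.

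The share past 2-fold rose with the width of the vehicle gap, which is the M2 vehicle level minus the M1 vehicle level. Among genes at least 5 log2 units lower in M2 it was 10 of 35 (28.6%), with Acod1, Ptgs2, Clec4e, Gbp5, Cxcl10 and Ccl5 among them. It was 7 of 83 (8.43%) at gaps from -5 to -3, 6 of 132 (4.55%) from -3 to -2, and 3 of 467 (0.642%) from -2 to -1. Within 1 log2 unit it was 4 of 4456 below 0 and 0 of 4710 above 0. Among genes higher in M2, 3 of 520 passed at gaps from 1 to 2, 1 of 148 from 2 to 3 and 0 of 74 from 3 upward, the bin that holds Arg1 (0.14), Retnla (-0.12) and Mrc1 (0.05).

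**Figure D2:**
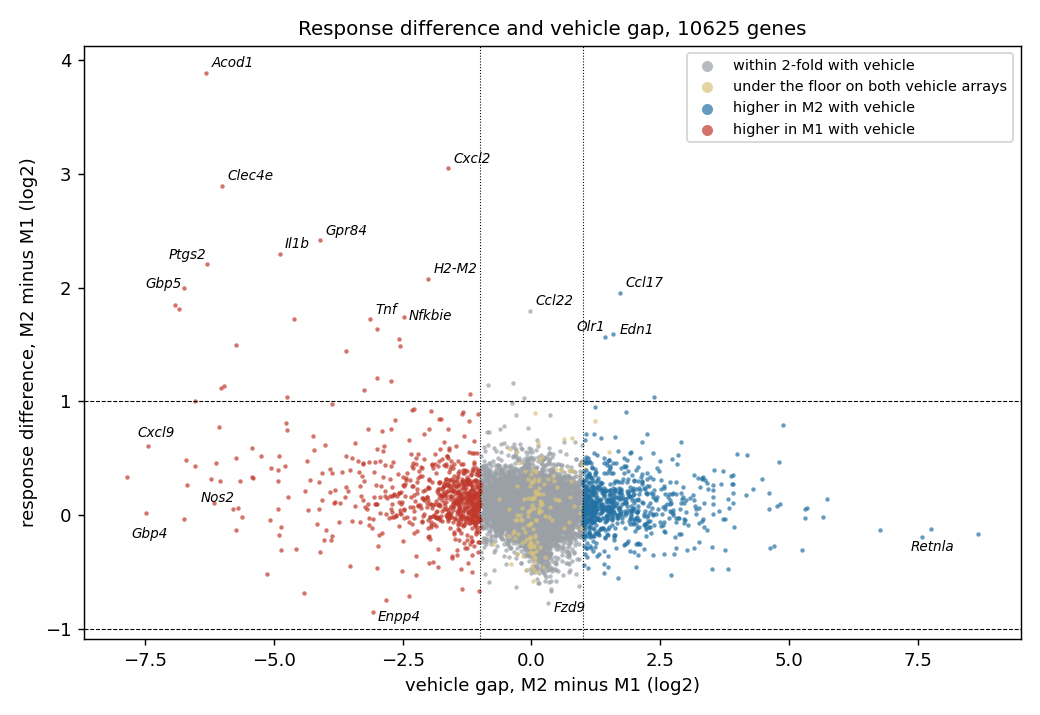
Response difference (vertical axis, log2) against the vehicle gap, M2 minus M1 (horizontal axis, log2), for 10625 genes, 1 point each, coloured by vehicle class; dashed and dotted lines mark 2-fold. Of the 34 genes above the upper dashed line, 26 lie left of the left dotted line, and Gbp4 (gap -7.47), Cxcl9 (-7.44) and Nos2 (-6.21) lie under the line, near the gap of Acod1 (-6.31) or beyond it.

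At a dividing level of 10, the M2 vehicle array separated the genes past 2-fold more sharply than the M1 vehicle array. Of the genes that read 10 or more on the M2 vehicle array, 0 of 3979 passed 2-fold, and the highest of them was at 0.85. Among the 6646 genes under 10 in M2, 34 passed (0.512%). Where M1 vehicle was 10 or more and M2 vehicle under 10, it was 24 of 710 (3.38%), where both were 10 or more, 0 of 3392, and where both were under 10, 10 of 5936. The dividing level of 10 was chosen after the values were seen. Both vehicle levels are also part of the response difference, and this split was not repeated on the IL-1α arrays. In the lowest bins of the M2 vehicle array, 2 of 19 genes under 6 and 9 of 93 between 6 and 7 passed, and genes that low were examined only because another array reached the floor. Signals on this array also depend on how well each probe set binds, so the bins do not order genes by transcript abundance.

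**Figure D3:**
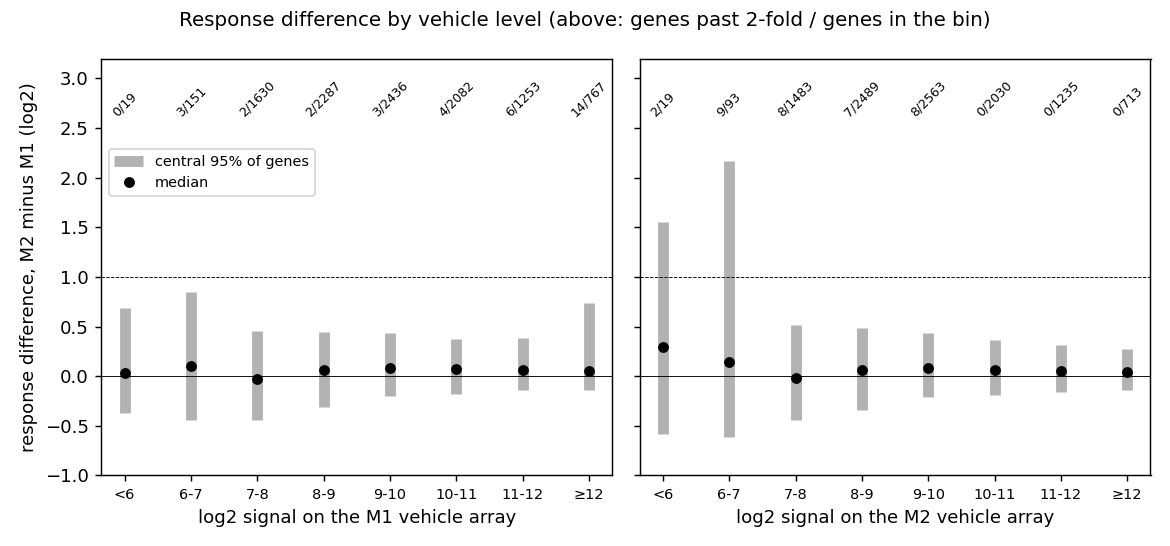
Response difference (vertical axis, log2) in bins of the log2 signal on the M1 vehicle array (left) and the M2 vehicle array (right); dots are medians over genes, bars hold the central 95% of genes, and the numbers above give genes past 2-fold over genes in the bin. Counts past 2-fold stop at 10 on the M2 axis (0 of 2030, 0 of 1235 and 0 of 713 above it), while on the M1 axis the largest count, 14 of 767, is at 12 or more.

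Because the response difference is the gap between the IL-1α arrays minus the gap between the vehicle arrays, an error in a vehicle array enters both axes and by itself lowers one as it raises the other. The classes were therefore also set by the IL-1α arrays, where an error in a vehicle array does not enter the class. An error in an IL-1α array then enters both axes and raises or lowers them together. The class higher in M1 then held 22 of 635 (3.46%), the class higher in M2 6 of 854 (0.703%) and the matched class 6 of 8990 (0.0667%). The class higher in M1 thus held the largest share on either pair of arrays. At the widest gaps the share was lower by the IL-1α arrays, 3 of 28 (10.7%) at -5 or less against 10 of 35 (28.6%), and 7 of 73 (9.59%) from -5 to -3. At gaps of 3 or more it was higher, 3 of 86 (3.49%) against 0 of 74. How much of the relation comes from error in the arrays was not tested. The order of the class medians turned: by the IL-1α arrays the median was 0.10 for genes higher in M1 and 0.14 for genes higher in M2. In the matched range, the median fell from 0.07 at gaps from -1 to 0 to 0.03 at gaps from 0 to 1 by the vehicle arrays, and went from 0.02 to 0.07 by the IL-1α arrays. No relation between small gaps and the response difference can be read from these arrays.

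Position near either end of the signal range moved with the result. M1-high genes whose M2 vehicle signal lay below the floor passed in 16 of 177 cases (9.04%), and those at the floor in 10 of 539 (1.86%). M1-high genes whose M1 vehicle signal was within 2 log2 units of the array's highest signal passed in 12 of 118 cases (10.2%), and the others in 14 of 598 (2.34%). The M1 response was small in both positions: among the 34 genes its median was 0.02 near the top and 0.05 further down. The part of either position in the result was not tested.

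The rise in M2 covered part of the vehicle gap in most M1-high genes past 2-fold. The M2 response as a share of the vehicle gap had a median of 43.7% over the 26 genes and ran from 16.2% in Cd69 to 197% in Cxcl2. It was 118% in Zc3h12c, 101% in H2-M2, 73.8% in Nfkbie, 64.9% in Nfkbia, 61.8% in Acod1, 60.6% in Tnf and 57.6% in Gpr84, and 31.0% in Gbp5, 24.1% in Cxcl10 and 19.1% in Ifit1. The share was at least 50% in 12 of the 26. With IL-1α, 22 of the 26 were still at least 2-fold lower in M2, 3 were within 2-fold, and Cxcl2 was at least 2-fold higher. Over all 716 M1-high genes the median share was 8.59%, with 96 genes at 25% or more and 22 at 50% or more. The 26 genes were selected by a difference that contains the M2 response, so their higher median follows in part from that choice. The M2 vehicle level also enters both the rise and the gap. A share of a gap that starts under the floor is uncertain, which applies to 16 of the 26.

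**Figure D4:**
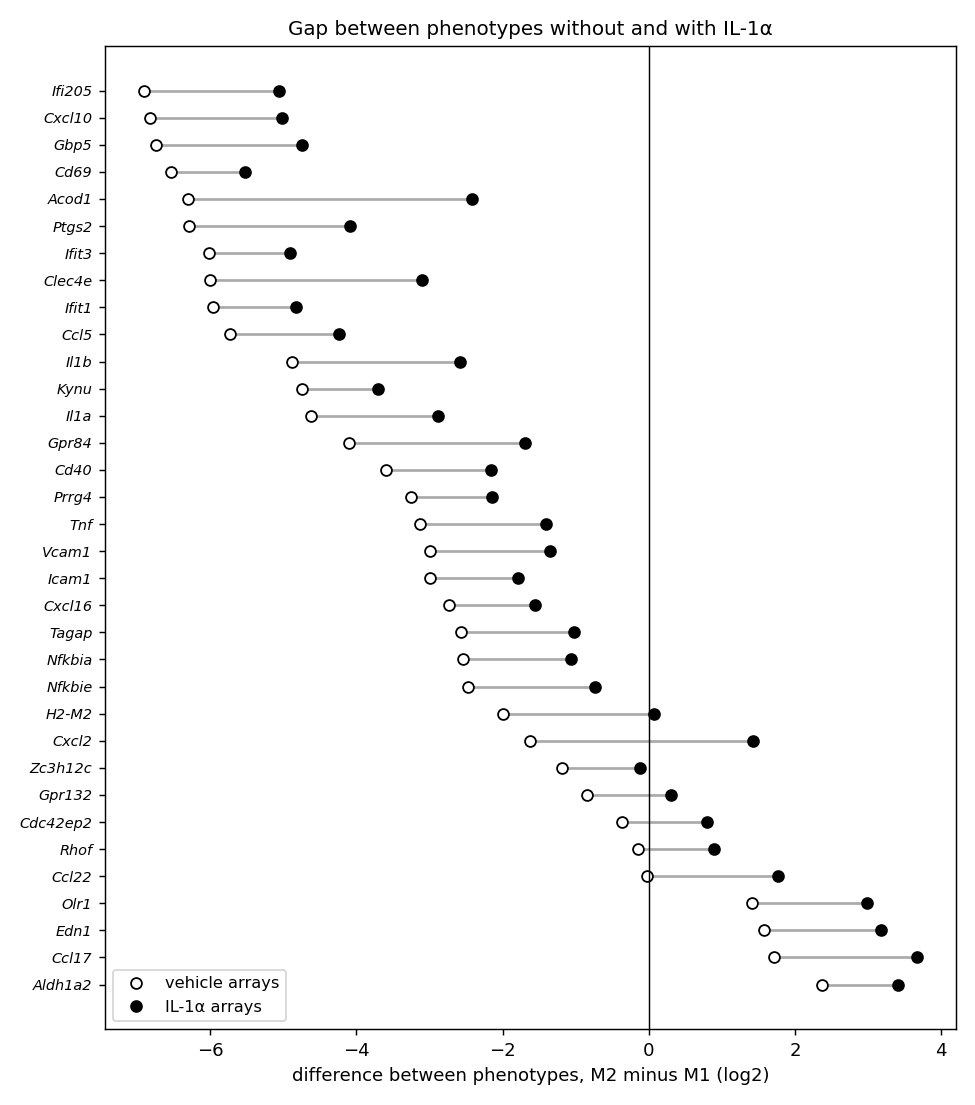
Difference between phenotypes, M2 minus M1 (horizontal axis, log2), on the vehicle arrays (open circles) and the IL-1α arrays (filled circles) for the 34 genes, ordered by the vehicle gap. Every gene moves to the right by definition of the set; Cxcl2, H2-M2, Gpr132, Cdc42ep2, Rhof and Ccl22 cross 0, and Olr1, Edn1, Ccl17 and Aldh1a2 move further above it.

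Genes with a wide gap varied in their response. Of the 20 named genes with the widest gaps below M1, 9 passed 2-fold and 9 had a response difference under 0.5. Gbp4, an interferon-induced GTPase, read 13.33 and 13.47 in M1 and 5.86 and 6.02 in M2, a difference of 0.02. Gbp5, of the same family, had a gap of -6.74 beside -7.47 in Gbp4 and a difference of 1.999. Ms4a4c (-0.03), Saa3 (0.27), Nos2 (0.32), Dnase1l3 (0.10) and Clic5 (0.30) were also at gaps of 6 or more log2 units without a 2-fold difference. Like Gbp4, these genes read under the floor on both M2 arrays, so their small M2 responses are uncertain. At gaps like theirs, Acod1 and Ptgs2 stood at 3.89 and 2.21.

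Gene lists with like gaps held different numbers of such genes. Among M1-high members, the NF-κB targets passed in 11 of 19 cases with a median vehicle gap of -3.25, the guanylate-binding proteins and interferon-γ targets in 3 of 19 (Gbp5, Cxcl10 and Cd40) with a median gap of -3.22, and the type I interferon-stimulated genes in 3 of 27 with a median gap of -3.83. The median response differences of these members were 1.44, 0.17 and 0.26, against 0.16 over all M1-high genes, of which 26 of 716 (3.63%) passed. Their M2 response covered a median of 39.1%, 7.52% and 7.28% of the gap. Cd40 belongs to both of the lists that share it, and the difference between lists was not tested. The NF-κB list was drawn up with earlier results of these arrays known, so its count is no independent evidence of its direction.

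**Figure D5:**
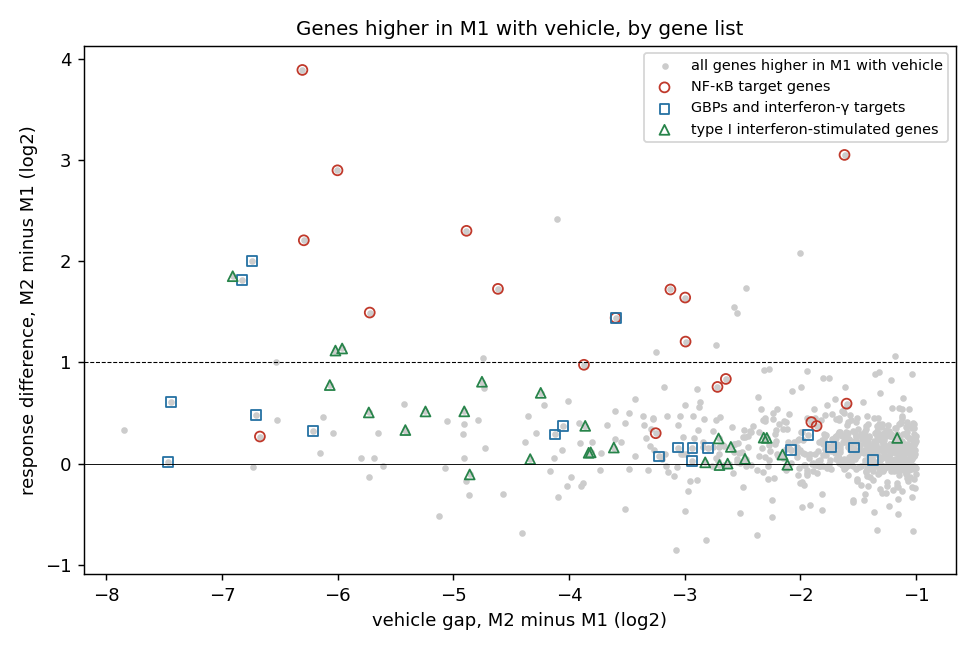
Response difference (vertical axis, log2) against the vehicle gap, M2 minus M1 (horizontal axis, log2), for the 716 genes at least 2-fold higher in M1 with vehicle (grey), with NF-κB targets as circles, guanylate-binding proteins (GBPs) and interferon-γ targets as squares and type I interferon-stimulated genes as triangles. Circles range from 0.27 (Saa3) to 3.89 (Acod1), squares from 0.02 (Gbp4) to 1.999 (Gbp5) and triangles from -0.11 (Oas3) to 1.85 (Ifi205), so the lists overlap; the square at 1.44 is Cd40, which is also an NF-κB target.

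The 8 M2-high and matched genes past 2-fold started above M1 or less than 2-fold below it. Ccl17, Edn1, Olr1 and Aldh1a2 started 1.71, 1.58, 1.42 and 2.37 above M1 and ended 3.67, 3.18, 2.99 and 3.41 above it. Edn1 read 6.74 and 6.76 in M1 and 8.32 and 9.94 in M2, and Olr1 read 6.20 and 6.40 in M1 and 7.62 and 9.38 in M2, so all their M1 levels lay under the floor. Cdc42ep2 read 10.02 and 10.09 in M1 and 9.66 and 10.89 in M2, Gpr132 read 9.85 and 9.77 in M1 and 9.01 and 10.07 in M2, and Rhof read 7.73 and 7.77 in M1 and 7.59 and 8.66 in M2. In these genes and in Ccl22 the phenotypes were alike within 2-fold without IL-1α and M2 was the higher with it. Only in Ccl22 did the gap with IL-1α pass 2-fold (1.77). It was 0.80 in Cdc42ep2, 0.89 in Rhof and 0.30 in Gpr132, where the phenotypes lay further apart without IL-1α (-0.84). Next in line were Slamf1 (0.95) among M2-high genes, Csf1 (0.88) among matched genes and Zbtb10 (0.83), Apol7c (0.68), Pecr (0.67), Chst7 (0.55) and Tmem81 (0.55) among genes under the floor on both vehicle arrays. The lowest were Rtn4rl1 (-0.55), Msx3 (-0.53) and Haus4 (-0.51) among M2-high genes and Prss41 (-0.50), Gpha2 (-0.48) and Hand1 (-0.46) among the genes under the floor.

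No named gene was past 2-fold in the other direction. Enpp4, of the ectonucleotide phosphodiesterase family, was the lowest. It read 9.95 with vehicle and 10.28 with IL-1α in M1, and 6.87 and 6.35 in M2. Its response difference was -0.85, and the measured gap went from -3.08 to -3.93. The Wnt receptor Fzd9 read 7.89 and 8.18 in M1 and 8.22 and 7.73 in M2 (-0.77). The myeloid receptor Cd300e read 9.46 and 10.03 in M1 and 7.09 and 6.95 in M2 (-0.71). In Cd300e most of the difference lay in M1, whereas in Fzd9 more of it lay in M2, on signals near the floor. Ifi214 (-0.69), the respiratory chain subunit Uqcr11 (-0.67, with an M1 response of 0.83), Lrp4 (-0.63), Tbc1d16 (-0.62), Msantd1 (-0.60), L3mbtl1 (-0.59) and Ptprm (-0.59) completed the 10 lowest. Of these, Enpp4, Cd300e and Ifi214 were M1-high and the other 7 were matched. Enpp4, Cd300e and Ifi214 (5.60 and 5.08 in M2) read under the floor on both M2 arrays. Their M2 responses and the change of their gaps are therefore uncertain.

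In the IL-1 receptor pathway, the ligand genes passed 2-fold and the receptor chains and adaptors examined did not. Of 16 members examined, Il1b and Il1a passed (12.5%, against 0.32% of all genes), 11 were above 0 and the median was 0.11. The co-receptor Il1rap read 7.72 and 7.73 in M1 and 8.90 and 9.34 in M2, a response difference of 0.43. The adaptor Myd88 (0.33), the kinase Irak2 (0.32), the inhibitor Tollip (0.22), the ligase Traf6 (0.15), the receptor antagonist Il1rn (0.12), the kinase Irak1 (0.10), the ubiquitin-conjugating enzymes Ube2n (0.01) and Ube2v1 (-0.05), the ligases Peli1 (0.01), Peli2 (-0.01) and Peli3 (-0.25), the inhibitory receptor Sigirr (-0.13) and the inhibitory kinase Irak3 (-0.22) all lay within 0.45. The decoy receptor Il1r2 read between 5.91 and 6.05 on all 4 arrays, under the floor. Il1r1 and Irak4 were not analysed here. Of 20 TAK1, IKK and MAP kinase members, which include the NF-κB subunits, 0 passed, with a median of 0.14, and Relb (0.83), Nfkb2 (0.70), Map3k8 (0.37), Rela (0.33) and Rel (0.31) were the highest.

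Across the lists, the NF-κB targets had the highest median, 0.80 over 28 members examined. Of these, 12 passed 2-fold and 28 were above 0, against 0.32% and 66.1% of all genes. Of the 28, 19 were M1-high, a class in which 3.63% of genes passed. The lists were chosen with earlier results of these arrays known, so their counts and order are descriptions and no independent evidence. Type I interferon-stimulated genes had 3 of 27 past 2-fold and a median of 0.26, and guanylate-binding proteins and interferon-γ targets 3 of 20 and 0.16, with Cxcl9 at 0.61 and Iigp1 at 0.48. Cmpk2 (0.81) and Ifit2 (0.78) were the highest interferon-stimulated genes under 2-fold. Costimulation and antigen presentation genes had 2 of 17 and 0.26, with Cd83 at 0.76 and Cd86 at 0.43. Adhesion and matrix genes had 2 of 18 and 0.10, with the integrin Itgal at 0.59, the protease Mmp14 at 0.50 and Mmp8 at -0.43. Pattern recognition receptors had 1 of 22 (Clec4e) and 0.09, with Nlrp3 at 0.76, Cd14 at 0.43, Clec4n at 0.41 and Tlr2 at 0.37. Metabolite and lipid sensing receptors had 2 of 16 (Gpr84 and Gpr132) and a median of -0.01, with Lpar1 at -0.50. Interleukin-4 response genes had 2 of 27 (Ccl17 and Ccl22) and a median of 0.05, with Ccl24 at 0.53 and Pdcd1lg2 at 0.39. The median over all genes was 0.06, and a gene may stand in more than 1 list.

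The remaining lists had 0 members past 2-fold. Immediate early genes had a median of 0.20 over 19 members, with Klf2 at -0.54, Jund at 0.51 and Maff at 0.49. MAP kinase feedback and mRNA decay genes had 0.22 over 12, with Rc3h1 at 0.47 and Dusp4 at 0.32. Cholesterol synthesis genes, which were higher in M2 with vehicle in 14 of 15 cases, had 0.14, with Fdft1 at 0.36 and Cyp51 at 0.29. Cell cycle genes had 0.09 over 22, with Mcm7 at 0.46 and Rrm2 at 0.42. Oxidative and antioxidant genes had 0.10 over 18, with Sod2 at 0.41 and Slc7a11 at 0.32. Macrophage core genes had -0.04 over 17, with Cd14 at 0.43 and Mertk at -0.22. These medians lay within 0.22 of 0.

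Close to the threshold, Kynu (1.04), Rhof (1.03) and Cd69 (1.01) were the last genes inside. Just outside, among named genes, Traf1, an NF-κB-induced signalling adaptor, was at 0.98, Slamf1 at 0.95, the death receptor Fas at 0.93 and the caspase Casp4 at 0.92. Nothing in these arrays separates the genes on either side of the line.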

How the data were processed

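Total RNA was hybridised to a single-colour Affymetrix mouse gene array, 1 array per group. The authors deposited 1 log2 value per probe set and array. The submitters' processing notes name RMA and Affymetrix Expression Console, with versions, settings and genome build not given in the sources used here. The log base is unstated and was read from the range of the values (medians of 7.32 to 7.38, highest 14.47). RMA sets the arrays to a common distribution and compresses differences of dim probe sets. Detection calls were not used here.

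GEO's platform annotation gave 1 gene for 21789 of 35556 rows (21698 matched to a RefSeq table of GRCm38.p6), 1621 several and 12146 none. Probe sets of a gene were averaged. Arrays of 1 phenotype correlated at 0.9969 (M1) and 0.9958 (M2) over probe sets and arrays of different phenotypes at 0.9617 to 0.9658. Their number limits the precision.

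The response difference was computed with Python 3.11.15, pandas 2.3.3 and numpy 2.4.6, and the loess alternative with statsmodels 0.14.6. A gene counted where the difference reached 1 and at least 1 array reached the floor. Groups come from the source names. The steps were tested on simulated data. Alternatives were a 1.5-fold threshold, other floors, loess centring, further quantile normalisation, the brightest probe set, and classes from the IL-1α arrays or at 4-fold. The 26 gene lists (459 symbols, 420 measured) and the members were chosen with earlier results of these data known. Named were every gene past 2-fold, the 10 lowest, the 5 highest and 3 lowest per vehicle class, up to 5 members of each list, all IL-1 receptor pathway members, Acod1, Gpr84, Ptgs2, Enpp4 and check genes, without predicted genes, clones, small RNAs and receptor segments. Genes named at wide gaps, near the threshold and as examples beside a list were added after their values were seen. A further promoter motif searched is not reported here.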

Additional observations from a re-analysis of the deposited data

Results flagged for a closer look

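In 8 genes the M1 and M2 responses lay on opposite sides of 0 by at least 0.3 each, a size chosen after the values were seen. The difference was not tested, since each response rests on 2 arrays. Enpp4 had an M1 response of 0.34 and an M2 response of -0.52, a response difference of -0.85, and its M2 signals lay below the floor with and without IL-1α. The other 7 were lower with IL-1α in M1 and higher with it in M2. Prrg4 (-0.43 and 0.67, difference 1.10) stayed below the floor in M2. The lymphocyte receptor Slamf1 (-0.31 and 0.65, difference 0.95), the carbonyl reductase Cbr2 (-0.36 and 0.55, difference 0.91), the histone gene H2ac4 (-0.33 and 0.38, difference 0.71) and the mitotic kinase Melk (-0.33 and 0.33, difference 0.66) were M2-high, and all but Slamf1 read under the floor on both M1 arrays. Pecr (-0.31 and 0.36, difference 0.67) was under the floor on both vehicle arrays, and Praf2 (-0.30 and 0.30, difference 0.60) was matched and above the floor on all 4 arrays.

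Probe sets with several genes or none stayed out of the gene comparison. Of the 5705 at the floor, 13 had a response difference of at least 1 and 35 of -1 or less, so the 0 genes past 2-fold downward describe probe sets with 1 gene only.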

How the results depend on the processing

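At 1.5-fold the count of genes was 108 upward (58 M1-high, 15 M2-high and 30 matched) and 15 downward. Without a floor, 4 genes were at -1 or less, and the all-gene median went from 0.06 to -0.0013 and the share above 0 from 66.1% to 49.7%. With the floor at the 75th percentile (9.63), 30 of the 34 genes passed, with 0 M2-high and 2 matched: some genes leave the comparison, and others, such as Ccl17, Edn1 and Ccl22, still pass but have both vehicle levels below that floor. With classes separated by 4-fold, 1 was M2-high and 10 were matched. Further quantile normalisation brought Zc3h12c to 0.99, kept 33 of the 34, and moved the share above 0 to 57.1%. Loess centring and the brightest probe set per gene kept all 34, the latter with 35 in all. The other counts stayed within 1.5 times. For the genes past 2-fold and the 10 lowest, 209 of 210 recomputed values kept their direction and side of 2-fold. Most of these could not change. Other floors only select genes, so 44 values without a floor and 34 at the 75th percentile repeat the main ones. The brightest probe set can change only genes with more than 1 probe set. Loess centring and further quantile normalisation could move every value, and 44 and 43 kept their side, with 1 (Zc3h12c) crossing it. Genes named for other reasons were not recomputed singly. Class and list medians moved by less than 1 SD over genes (0.20), a wide margin for medians of this size; those of matched genes ran from 0.02 to 0.06. The median share of the gap covered ran from 42.3% to 43.7%. No paired analysis was possible because each group holds 1 array. No group has a replicate to leave out, and signals under the floor limit what can be measured.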
